A study of Mus musculus with 6 samples.

Results

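The Myc, Max and Mxd network was examined through 9 genes, Myc, Max, Mlx, Mxd1, Mxd3, Mxd4, Mxi1, Mnt and Mga, which were taken by gene symbol. They are 9 of the 41079 genes listed, and all 9 were among the 12227 genes that passed the filter on low values and were tested. The RNA came from D10 cells, a mouse helper T cell clone that recognises a conalbumin peptide and is grown with IL-2. Non-acclimated T cells were held at 37°C for 24 h and cold-acclimated T cells at 26°C for 24 h, with 3 independently prepared replicates of each, and poly(A)+ RNA was sequenced. Both conditions carry the name of the same clone, and the values describe cultured cells and not the CD4+ T cells of lymph node that the labels name. The comparison asks whether the RNA of the network differed after 24 h in the cold.

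Myc is a transcription factor that binds E-box DNA only as a dimer with Max, and Myc-Max dimers raise the expression of genes for growth, ribosome assembly and nucleotide synthesis. Mxd1, Mxd3, Mxd4, Mxi1 and Mnt compete with Myc for Max and for the same DNA, and they bring Sin3 corepressors with histone deacetylases to it. Mga also dimerises with Max and is a scaffold of the polycomb complex PRC1.6, whereas Mlx is the partner of Mnt, Mxd1, Mxd4 and the sugar-responsive Mondo proteins. In T cells Myc is induced by antigen receptor and IL-2 signals and drives the growth that precedes division, and Mxd proteins are known for their link to arrest and differentiation.

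Levels are given in TPM, reads per length of a gene on a scale with the same total in each library. Whole reads could be recovered from them for 99.991% of genes with a value above 0, and the libraries held 16899606 to 31290821 reads. Of the members, Myc rested on the most reads (2769 to 18844 in a library) and Mxd1 on the fewest (109 to 186). The summed level of 17 T cell markers was 4204 to 5719 TPM in non-acclimated and 5041 to 6021 TPM in cold-acclimated cells, with Cd3e and Gata3 high throughout, and Thy1 was listed at 0 and Cd5 at no more than 0.0454 TPM. Cd4, part of the labelled cell type, was 310 and 328 TPM in the replicate 3 libraries but no more than 1.30 TPM in the other 4. The B cell list, which would show carried-over lymphoma cells of the study, summed to 4.67 to 15.5 TPM, with Cd79a at or below 0.587 TPM. The macrophage list summed to 2.87 to 21.5 TPM and the erythroid list to 61.3 to 487 TPM. Of the 7 erythroid genes, 1 passed the filter on low values and 4 were listed at 0 in all libraries. Because the replicate 3 pair stands apart, the changes of the members are also given without it. In bulk RNA, fewer cells with a transcript and less of it per cell cannot be told apart.

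The E-box CACGTG, the DNA that Myc-Max and Mxd-Max dimers prefer, was searched in the promoters of the members themselves, from 250 bases before to 50 after each gene start in the mouse genome GRCm39. It was present in 4 of the 9 windows, those of Max, Mxd4, Mnt and Mlx, against 9.65% of the 10436 windows of tested protein-coding genes and 7.39% of all 22203. These stretches show it in capitals on the strand of the gene, with its first base at -177 in Max, -197 in Mxd4, -24 in Mnt and -40 in Mlx, counted from the gene start.
Max, chr12:77009258-77009337, minus strand: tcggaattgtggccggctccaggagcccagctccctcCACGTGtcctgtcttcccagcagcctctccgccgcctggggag
Mxd4, chr5:34345231-34345310, minus strand: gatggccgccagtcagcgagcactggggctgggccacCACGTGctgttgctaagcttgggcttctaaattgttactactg
Mnt, chr11:74721615-74721644, plus strand: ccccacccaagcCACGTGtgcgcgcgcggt
Mlx, chr11:100978064-100978093, plus strand: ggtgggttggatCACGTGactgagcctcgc
The E-box reads the same on both strands. The E2F sites TTTCCCGC and TTTGGCGC, searched on both strands, were found in 1 of the 9 windows, that of Mxd3, against 2.89% of the windows of tested protein-coding genes. The site is shown because Mxd3 carried the largest change among the members, and its first base lies at -1.
Mxd3, chr13:55477920-55477949, minus strand: aaccggcagctTTTCCCGCccgagtcgggg
A match of letters is not a measured binding site. Of the 4 members with an E-box, Max and Mnt were called in no fit. Gene starts in GENCODE lie 29 to 343 bases from those used here for 8 members and 24720 bases away for Mga. With windows set from the GENCODE starts, a choice made after the data were seen, 3 of 9 members held an E-box, Max, Mxd4 and Mlx, against 9.36% of tested protein-coding genes. The E-boxes printed for Max and Mnt lie outside those windows, and the one counted for Max is another.

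Across the network, Mxd3 RNA fell in the cold, and no other member passed the test on the deposited TPM without a replicate term. Mxd4, Mga and Mlx were lower in all cold-acclimated libraries without passing that test, although Mxd4 and Mlx passed with a replicate term. Myc and Max varied more between replicates than between conditions. A gene was called when limma on log2(TPM + 1) gave an adjusted p under 0.05 over all tested genes, with at least 1 log2 unit between the conditions. By this rule 1 of the 9 members was called lower and 0 were called higher, where 16.0% of all tested genes were called lower and 2.63% higher. At an unadjusted p under 0.05, 4 members were lower and 0 higher, where 30.0% of all tested genes were lower and 7.75% higher. With voom on the recovered reads, limma again called 1 lower, Mxd3, and 0 higher, against 9.18% and 6.27% of tested genes. At an unadjusted p under 0.05 voom had 2 members lower and 1 higher, against 18.4% and 17.6%. The 4 that were lower, Mxd3, Mxd4, Mga and Mlx, did not overlap between the conditions and were lower in each of the 3 replicate pairs, where 31.4% of tested genes were lower without overlap. No member was higher without overlap, against 9.69% of tested genes, and 5 members changed in different directions between pairs. The median log2 fold change of the members was -0.11, beside -0.34 over all tested genes. Because the median gene itself was lower in cold-acclimated TPM, the libraries were also rescaled by the median of their ratios, which put the median of all tested genes at 0.02 and that of the members at 0.19. In the rescaled values 8.79% of tested genes were called lower and 6.56% higher, and Mxd3 was again the member called. The voom fit also scaled the libraries by a median of ratios, so it is not independent of the rescaled fit. The replicate numbers pair the libraries, and with the replicate as a term in the fit 3 members were called lower, Mxd3, Mxd4 and Mlx, and 0 higher, against 21.9% and 3.75% of tested genes. With both that term and the rescaling, Mxd3 was the only member called, in a fit with 1544 genes called lower. Without the replicate 3 pair, Mxd3 and Mga were called lower, at -2.57 (limma, adjusted p = 0.0076) and -1.14 (limma, adjusted p = 0.033), while 25.3% of tested genes were called lower and 5.34% higher in that fit. Mxd4 was then at -1.38 (limma, adjusted p = 0.062) and Mlx at -1.01 (limma, adjusted p = 0.1), and the log2 fold change was 0.25 for Max, -0.37 for Mxd1, -0.31 for Mxi1 and 0.53 for Mnt.

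**Figure D1:**
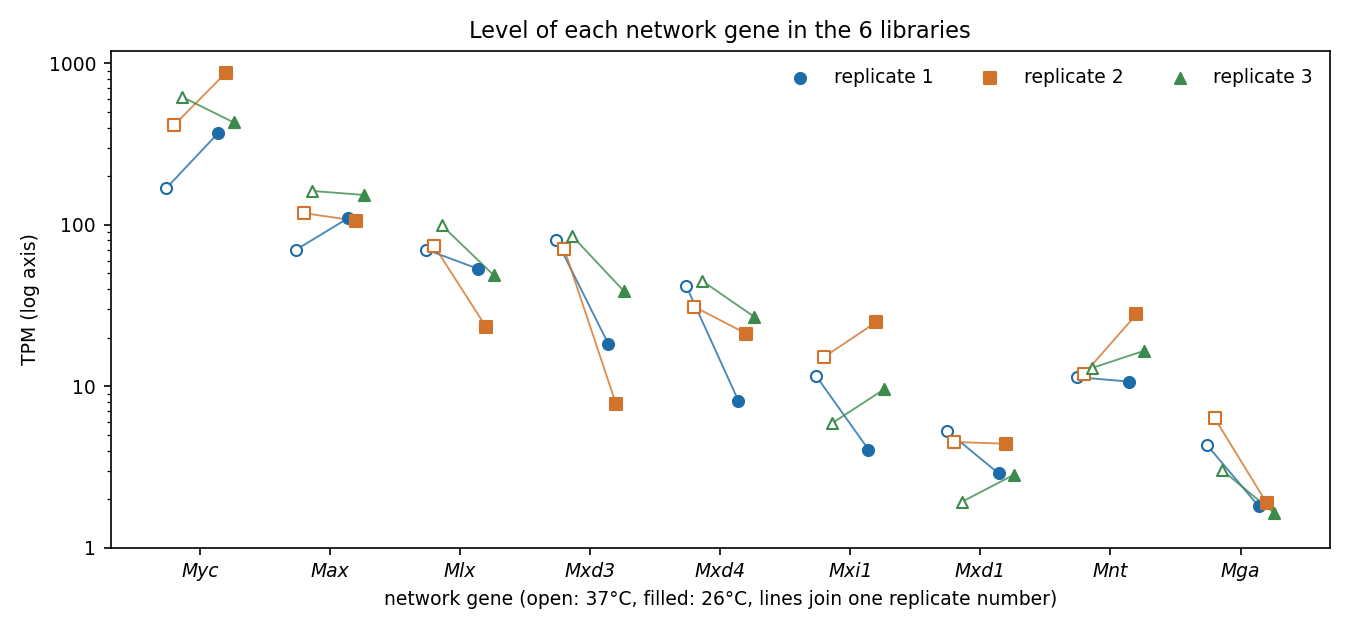
Level of each member in TPM on a log axis, with open symbols for the 3 non-acclimated (37°C) and filled symbols for the 3 cold-acclimated (26°C) libraries and a line for each replicate pair. In the TPM as deposited every line falls for Mxd3, Mxd4, Mlx and Mga, whereas the lines of Myc, Max, Mxi1, Mxd1 and Mnt run in different directions.

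Myc (chr15:61857190-61862210) was the most abundant member in every library. It measured 168, 413 and 621 TPM in non-acclimated replicates 1, 2 and 3 and 369, 873 and 430 TPM in cold-acclimated replicates 1, 2 and 3. The conditions overlapped, since the level was 2.19 and 2.11 times as high in the cold in pairs 1 and 2 but 0.692 times as high in pair 3. The means were 401 ± 227 TPM at 37°C and 557 ± 275 TPM at 26°C (SD, n = 3), and the log2 fold change of 0.56 had a 95% interval from -0.67 to 1.78 (limma, adjusted p = 0.48). The spread among the 37°C libraries alone, from 168 to 621 TPM, was wider than the difference between the means. Without the replicate 3 pair the log2 fold change was 1.10 (limma, adjusted p = 0.18), and after rescaling it was 0.96 (limma, adjusted p = 0.23).

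Max (chr12:76984045-77009123), a partner shared by Myc, the Mxd proteins, Mnt and Mga, held 70.1, 118 and 162 TPM in non-acclimated and 110, 106 and 153 TPM in cold-acclimated cells. The cold-acclimated values lay inside the non-acclimated range, and the log2 fold change was 0.14 with an interval from -0.65 to 0.93 (limma, adjusted p = 0.81). Myc exceeded Max 2.40, 3.51 and 3.84 times at 37°C and 3.36, 8.22 and 2.81 times at 26°C, so this ratio overlapped as well.

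Mxd3 (chr13:55472983-55477937), a Max partner that recruits Sin3 and is known from dividing cells, showed the largest change. It held 80.8, 71.3 and 85.6 TPM in non-acclimated and 18.3, 7.73 and 38.8 TPM in cold-acclimated cells. The highest cold value was below the lowest value at 37°C, and the fall was deepest in pair 2, where 0.108 of the level remained, and shallowest in pair 3, where 0.454 remained. The means of 79.2 ± 7.25 and 21.6 ± 15.8 TPM (SD, n = 3) differed 3.66-fold, and the log2 fold change was -2.08 ± 0.50 (SE) with an interval from -3.26 to -0.91 (limma, adjusted p = 0.028). After rescaling the log2 fold change was -1.70 (limma, adjusted p = 0.046). The call was lost in most fits that left out 1 library. Leaving out non-acclimated replicate 1, 2 or 3 gave an adjusted p of 0.085, 0.085 or 0.061 in limma, and leaving out cold-acclimated replicate 1 or 2 gave 0.089 or 0.06. The call held without cold-acclimated replicate 3, with a log2 fold change of -2.62 (limma, adjusted p = 0.0042). It also held without the replicate 3 pair, at -2.57 (limma, adjusted p = 0.0076), but not without pair 1 or pair 2, where no gene was called. Mxd3 shares 103 bases with Prelid1 on the opposite strand, whose level of 498, 650 and 965 TPM against 400, 348 and 825 TPM was much higher, and the strand setting of the counting is not given in the sources used here.

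Mxd4 (chr5:34331231-34345076), another Sin3-recruiting repressor, was lower in the cold in each pair. Its level was 41.6, 31.1 and 45.0 TPM at 37°C and 8.13, 21.2 and 27.0 TPM at 26°C, with no overlap. The log2 fold change of -1.16 had an interval from -2.15 to -0.16 and did not pass (limma, adjusted p = 0.091). With the replicate as a term it did (limma, adjusted p = 0.044). Without cold-acclimated replicate 3 it was -1.48 (limma, adjusted p = 0.037), in a fit with 2725 genes called lower. Leaving out any other library gave an adjusted p of 0.15 to 0.2 in limma. After rescaling the log2 fold change was -0.77 (limma, adjusted p = 0.21), and the conditions then overlapped.

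Mxi1 and Mxd1, the other Mxd genes, showed no common direction. Mxi1 (chr19:53298509-53361724) held 11.5, 15.2 and 5.91 TPM in non-acclimated and 4.06, 25.0 and 9.58 TPM in cold-acclimated cells. It was 0.353 times as high in the cold in pair 1 and 1.64 and 1.62 times in pairs 2 and 3, and its log2 fold change (limma, adjusted p = 0.997) had an interval from -1.41 to 1.40, which leaves a change of more than 2-fold in either direction possible. Mxd1 (chr6:86624026-86646099), a gene induced on differentiation in many lineages, was low at 5.32, 4.52 and 1.93 TPM against 2.89, 4.41 and 2.84 TPM. Its log2 fold change was -0.11 with an interval from -0.97 to 0.75 (limma, adjusted p = 0.86), and the sign of both genes turned after rescaling, to 0.35 for Mxi1 and 0.19 for Mxd1.

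Mnt (chr11:74721651-74736551), the broadly expressed repressor partner of Max and Mlx, was even at 37°C with 11.4, 12.0 and 13.0 TPM and spread at 26°C with 10.7, 27.9 and 16.6 TPM. The conditions overlapped through replicate 1, and the log2 fold change of 0.46 had an interval from -0.35 to 1.28 (limma, adjusted p = 0.38). After rescaling Mnt was higher in the cold without overlap, with a log2 fold change of 0.83 (limma, adjusted p = 0.13).

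Mga (chr2:119702974-119800610), the PRC1.6 scaffold, was at 4.35, 6.37 and 3.02 TPM in non-acclimated and 1.81, 1.90 and 1.64 TPM in cold-acclimated cells. The cold values lay close together, at a mean of 1.78 ± 0.132 TPM against 4.58 ± 1.69 TPM (SD, n = 3), and below all values at 37°C. Its level per length was low, although 427 to 1431 reads stood behind each value. The log2 fold change was -0.96 with an interval from -1.69 to -0.23 (limma, adjusted p = 0.066). A pseudocount of 1 understates the change of a gene at this level, and with 0.1 the log2 fold change was -1.25 (limma, adjusted p = 0.068). With the replicate as a term the adjusted p was 0.034 in limma, with a size still under the threshold. Without non-acclimated replicate 3 it was called at -1.18 (limma, adjusted p = 0.043), in a fit with 1820 genes called lower. Leaving out any other library gave an adjusted p of 0.095 to 0.21 in limma. After rescaling the log2 fold change was -0.66 (limma, adjusted p = 0.16).

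Mlx (chr11:100978116-100983033), the partner shared by Mnt, Mxd proteins and the Mondo proteins, held 70.2, 74.1 and 99.2 TPM at 37°C and 53.3, 23.3 and 48.6 TPM at 26°C. The conditions did not overlap, with means of 81.2 ± 15.7 and 41.7 ± 16.1 TPM (SD, n = 3). The log2 fold change of -1.01 had an interval from -1.82 to -0.20 and did not pass (limma, adjusted p = 0.076), while with the replicate as a term it did (limma, adjusted p = 0.03). After rescaling it was -0.62 (limma, adjusted p = 0.22) and the conditions overlapped. Mlx shares 1796 bases with Psmc3ip on the opposite strand, and Psmc3ip was lower too, at 45.7, 43.2 and 49.7 TPM against 29.5, 10.8 and 25.7 TPM. The part of that overlap in the level of Mlx was not tested.

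**Figure D2:**
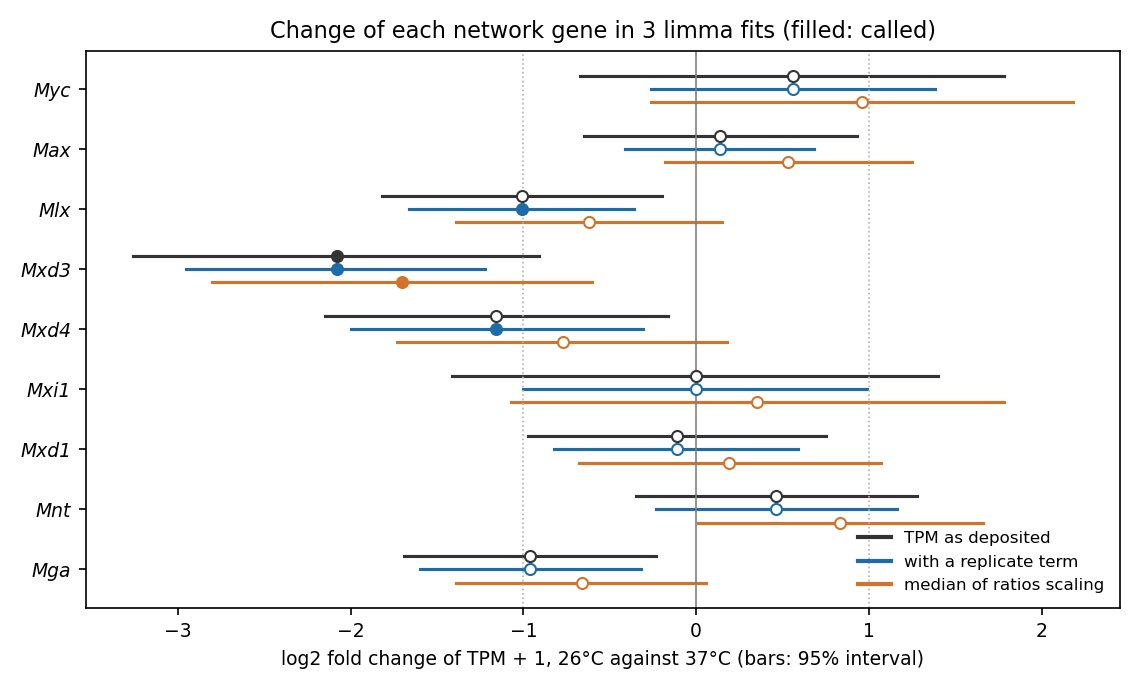
Log2 fold change of each member, 26°C against 37°C on the log2(TPM + 1) scale, with 95% intervals, from limma on the TPM as deposited, with a replicate term, and after median of ratios scaling. Filled points passed the test: Mxd3 in all 3 fits and Mxd4 and Mlx with the replicate term, while the points of Mxi1 and Mxd1 move to the other side of 0 after scaling.

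The order of the members by mean level was the same in both conditions, except that Mga and Mxd1, the lowest members, traded places. At 37°C it ran from Myc through Max, Mlx, Mxd3, Mxd4, Mnt, Mxi1 and Mga to Mxd1 by mean TPM, and Myc, Mxd3 and Mxd4 stood apart from the next member below them. The ranges of Max and Mlx, of Mlx and Mxd3, and of each neighbour from Mnt downwards overlapped. At 26°C Max stood clear of Mlx, the ranges from Mlx down to Mxd1 overlapped from one neighbour to the next, and Mga was the lowest, below Mxd1.

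The RNA of the Mxd repressors and Mnt was then summed and set against Myc within each library. Scaling a whole library by a single factor does not alter this ratio. The summed level of Mxd1, Mxd3, Mxd4, Mxi1 and Mnt was 151, 134 and 151 TPM in non-acclimated and 44.1, 86.2 and 94.8 TPM in cold-acclimated cells. Myc stood at 1.12, 3.08 and 4.10 times this sum at 37°C and at 8.38, 10.1 and 4.54 times at 26°C. The ratio was thus higher in every cold-acclimated library than in any non-acclimated one, but by 7.50-fold in pair 1 and by 1.11-fold in pair 3. The conditions did not overlap by a narrow margin, 4.10 against 4.54, and both of these libraries are of replicate 3. Its log2 difference was 1.59 over all libraries, 0.93 without pair 1, 1.03 without non-acclimated replicate 1 alone and 2.31 without pair 3. No p was computed for it. Mxd3 made up 58.0, 58.4 and 61.8% of the 4 Mxd genes' TPM at 37°C and 54.9, 13.3 and 49.6% at 26°C. With Mxd3 left out of the sum the ratio was 2.41, 6.57 and 9.43 against 14.3, 11.1 and 7.68, and the conditions overlapped. RNA ratios say nothing of the proteins, which were not measured.

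For the partners, Mlx relative to Max was 1.00, 0.629 and 0.614 at 37°C and 0.485, 0.219 and 0.318 at 26°C, lower in all cold libraries and in all pairs. The repressor sum relative to Max was 2.15, 1.14 and 0.937 against 0.401, 0.812 and 0.621, also without overlap.

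**Figure D3:**
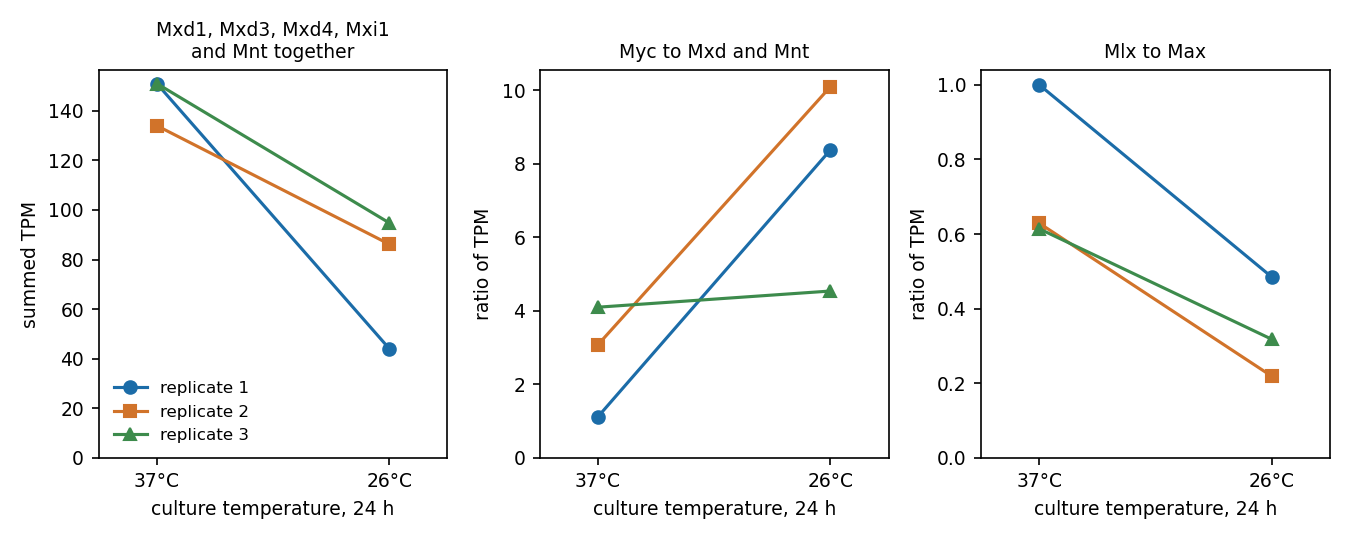
Summed TPM of Mxd1, Mxd3, Mxd4, Mxi1 and Mnt, the ratio of Myc to that sum and the ratio of Mlx to Max in each library, with a line for each replicate pair from 37°C to 26°C. The sum and the Mlx ratio fall in all 3 pairs, and the Myc ratio rises from 1.12 to 8.38 in pair 1 but from 4.10 to 4.54 in pair 3.

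The other genes examined here were the remaining Myc and Mondo genes with Txnip and Arrdc4, targets of Mondo-Mlx dimers. Mycn, Mlxipl and Arrdc4 were listed at 0 in all 6 libraries, as was Thy1, a general mouse T cell gene, so a listed 0 is not read as absence. Mycl was at no more than 0.151 TPM. Of the 2 that were tested, Mlxip, the Mondo protein that dimerises with Mlx, was 32.3, 30.6 and 27.7 TPM against 36.7, 44.4 and 31.5 TPM, with a log2 fold change of 0.30 (limma, adjusted p = 0.39). Txnip, a brake on glucose uptake, was 238, 190 and 89.0 TPM against 282, 660 and 369 TPM, without overlap. Its log2 fold change of 1.36 did not pass (limma, adjusted p = 0.068), while it did with the replicate as a term (limma, adjusted p = 0.027) and after rescaling, where it was 1.76 (limma, adjusted p = 0.04).

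Among the corepressors that Mxd proteins and Mnt bring to DNA, none of the 16 Sin3 and NCoR genes was called by limma, nor by limma with voom on the recovered reads. At an unadjusted p under 0.05, 5 were lower and 0 higher in the TPM, and 0 lower and 4 higher with voom, against 30.0% and 7.75% of tested genes in the TPM and 18.4% and 17.6% with voom. Their median log2 fold change was -0.28, or 0.10 after rescaling, near that of all tested genes both times. For the lists that follow, 16.0% of all tested genes were called lower and 2.63% higher, or 8.79% and 6.56% after rescaling. With voom these shares were 9.18% and 6.27%, and with the replicate as a term 21.9% and 3.75%.

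Of the Mga partners in PRC1.6, 13 of 14 were tested, and 2 were called lower and 0 higher. At an unadjusted p under 0.05, 4 were lower and 2 higher. Tfdp1, the dimer partner of E2F6 and of other E2F factors, was 142, 189 and 228 TPM against 30.0, 36.2 and 81.5 TPM, a log2 fold change of -2.01 (limma, adjusted p = 0.016). Cbx1, a heterochromatin protein, fell by 1.77 on the log2 scale (limma, adjusted p = 0.02). After rescaling 2 were called lower and 2 higher, the same split as with voom.

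Among 19 coactivators of Myc, 1 was called higher and 4 lower, or 2 and 2 after rescaling. Actl6a, an actin-like subunit of chromatin remodellers, rose by 1.08 on the log2 scale (limma, adjusted p = 0.046). Kat2b, a histone acetyltransferase, fell by 1.79 (limma, adjusted p = 0.0077) and the SWI/SNF subunit Smarcb1 by 1.58 (limma, adjusted p = 0.023).

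Among factors that set the stability of the Myc protein, 25 of 27 were tested, and 1 was called higher and 4 lower. After rescaling limma called 5 higher and 0 lower, so the direction of this list rests on the scaling. With voom, which shares that kind of scaling, the calls were also 5 and 0, with 8 and 4 at an unadjusted p under 0.05. Trpc4ap and Fbxo28, both parts of ubiquitin ligases that act on Myc, fell by 1.17 and 1.04 on the log2 scale (limma, adjusted p = 0.032 and 0.02), and after rescaling neither passed (limma, adjusted p = 0.081 and 0.078). Among 21 tested factors for the RNA and translation of Myc, 1 was called higher and 1 lower, or 2 and 0 by limma after rescaling and with voom, where 8 and 2 had an unadjusted p under 0.05. Cnbp, a nucleic acid-binding protein that acts on the Myc promoter, rose by 1.12 on the log2 scale (limma, adjusted p = 0.019), and Zfp36, which promotes decay of AU-rich mRNA, fell by 1.24 on the log2 scale (limma, adjusted p = 0.048).

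The RNAs that Myc is known to raise were called in both directions, and their median lay above that of all tested genes. Of 85 such genes, all tested, 4 were called higher and 6 lower, against 2.63% and 16.0% of tested genes. A log2 fold change above 0 was found in 57, and the list's median was 0.25, beside -0.34 over all tested genes. After rescaling 14 were called higher and 3 lower, against 6.56% and 8.79%, with 70 above 0 and a median of 0.64, beside 0.02. After quantile normalization 3 were called higher and 4 lower, in a fit with 731 genes called higher and 765 lower. With the replicate as a term 6 were called higher and 7 lower, against 3.75% and 21.9%. Leaving out 1 library or 1 pair gave 0 to 16 called higher and 0 to 8 lower. Without the replicate 3 pair 16 were called higher and 8 lower, against 5.34% and 25.3%. With voom, which is also scaled by a median of ratios, 15 were called higher and 3 lower, against 6.27% and 9.18%. At an unadjusted p under 0.05 voom had 43 higher and 6 lower, against 17.6% and 18.4%. In the deposited TPM 17 were higher and 8 lower without overlap, beside 9.69% and 31.4% of tested genes. The median log2 change was 0.66 in pair 1, 0.02 in pair 2 and -0.04 in pair 3, beside -0.32, -0.44 and -0.24 for all tested genes. The 4 called higher, Wdr43, Ddx21, Imp4 and Nop58, all encode factors of ribosome assembly. How many of the 85 encode such factors was not counted. Of the 4, Wdr43 rose by 1.43 on the log2 scale (limma, adjusted p = 0.0096) and Ddx21 by 1.08 (limma, adjusted p = 0.029). Of the 6 called lower, Tert, the catalytic subunit of telomerase, went from 5.17, 6.17 and 5.33 TPM to 0.669, 0.798 and 0.454 TPM (limma, adjusted p = 0.0074), and Riox2, a ribosomal oxygenase, fell by 1.81 on the log2 scale (limma, adjusted p = 0.015).

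Of 30 genes that Myc is known to hold down, 19 were tested, and 1 was called higher and 2 lower. With the replicate as a term 1 was called higher and 7 lower, and after rescaling or with voom 2 higher and 2 lower. Gadd45a, a stress-induced inhibitor of growth, rose by 1.28 on the log2 scale (limma, adjusted p = 0.045). The antiproliferative gene Btg2 went from 54.7, 28.3 and 22.5 TPM to 3.56, 2.77 and 3.78 TPM, a log2 fold change of -2.95 (limma, adjusted p = 0.007), and the integrin gene Itga6 fell by 1.47 (limma, adjusted p = 0.019). The list's median log2 fold change was -0.72, or -0.34 after rescaling, beside -0.34 and 0.02 over all tested genes.

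**Figure D4:**
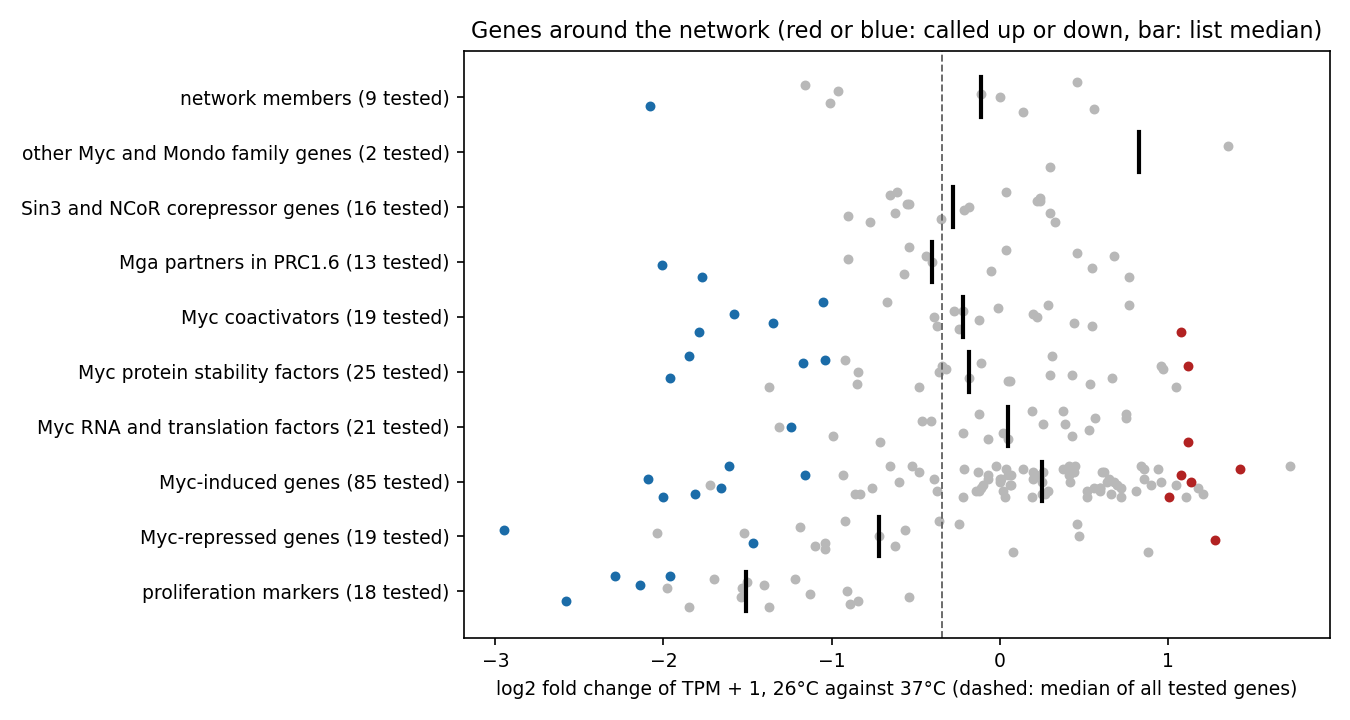
Log2 fold change of each tested gene of the network and of the lists around it, 26°C against 37°C on the log2(TPM + 1) scale, with genes called higher in red and lower in blue and a bar at each list's median. The Myc-induced genes lie on both sides of 0 around a median of 0.25, all 18 proliferation markers lie below 0, and the dashed line marks the median of all tested genes at -0.34.

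Markers of dividing cells fell along with Mxd3 in pairs 1 and 2, but in pair 3 their median hardly moved. All 18 proliferation markers had a log2 fold change below 0, also after rescaling, with a median of -1.51 that became -1.12. Of them, 4 were called lower, against 16.0% of tested genes, or 9 with the replicate as a term, against 21.9%. After rescaling or with voom 2 were called lower, against 8.79% and 9.18%. In the deposited TPM 6 were lower without overlap, against 31.4%. Without the replicate 3 pair, or without cold-acclimated replicate 3 alone, 17 were called lower, in fits with 3088 and 2725 genes called lower. Without non-acclimated replicate 3 the count of markers was 1, and it was 0 in limma without any 1 of the other 4 libraries, in fits with 345 to 600 genes called lower. By pair the markers' median log2 change was -1.80, -2.74 and -0.10, beside -0.32, -0.44 and -0.24 for all tested genes. In pair 3 it thus lay above that of all tested genes. The log2 change of Mxd3 was -2.08, -3.05 and -1.12. Mki67 was 230, 235 and 163 TPM at 37°C and 62.1, 43.1 and 173 TPM at 26°C, so it did not fall in pair 3, where Mxd3 still did. The part of proliferation in the change of Mxd3 was not tested.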

How the data were processed

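After quality checks with FastQC 0.11.7, the authors trimmed reads (Trimmomatic 0.38), aligned them to GRCm39 (HISAT2 2.1.0) and made gene counts (featureCounts 1.6.3), with versions from the submitters' processing notes. The deposited values are TPM, 1 column per library, and no scaling between libraries was applied to them here unless stated. The voom fit took its library sizes from the median of ratios of the recovered reads. The strand setting of the counting, like the annotation release, was not given in the sources used here. A gene's TPM values were whole multiples of 1 step, which gave its reads back within 1e-06 reads. The test was limma 3.58.1 (R 4.3.3) with a mean-variance trend on log2(TPM + 1), over genes whose mean TPM reached 1, with Benjamini-Hochberg adjustment. It replaced the authors' test of raw counts, since the table holds TPM. With 3 replicates per condition, an exact permutation test of a single gene could not go below p = 0.1. The procedure was tested on simulated data.

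Whether replicate numbers pair libraries was checked from each library's deviations from its condition's mean. These correlated at 0.48, 0.50 and 0.51 for the same number and at -0.41 to 0.02 otherwise, and the pairing by number was accepted. Extraction batches called old and new are mentioned in the labels but not assigned to libraries. The members and lists were chosen with earlier results of these data known, and the lists were written from general knowledge. Named were all members, every other Myc and Mondo family gene, the 2 genes called in each direction with the smallest p in each pathway list, the 3 genes most like Myc and the 3 most like Mxd4 in pattern, and 6 markers. Of these, 2 genes are not reported here. Imp4, Nop58, Thy1, Cd5, Prelid1 and Psmc3ip were named outside this rule, after their values were seen. Aurka and Plk1 stand in both the stability and the proliferation lists, Hdac1, Hdac2, Wdr5, Eif4e and Eif4a1 in 2 pathway lists each. Gene positions are those of the deposited table, and 29910 genes matched by identifier overlapped GENCODE on the same chromosome. Other software was matplotlib 3.10.9 for drawing, and scipy 1.17.1, pandas 2.3.3 and numpy 2.4.6 under Python 3.11.15.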

Additional observations from a re-analysis of the deposited data

How the results depend on the processing

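With no filter on low values limma called 184 genes higher and 1121 lower and 0 members, Mxd3 being at -2.08 with an adjusted p of 0.072. The SE of Mxd3 was then 0.54 in place of 0.50, and the cause was not tested. Genes called higher and lower numbered 802 and 1075 after median of ratios scaling, 731 and 765 after quantile normalization, and 767 and 1122 with voom on the recovered reads. Median of ratios scaling with the replicate block gave 1086 higher and 1544 lower. These scalings turned the sign of Mxd1 and Mxi1, to 0.19 and 0.35 with median of ratios, 0.53 and 0.59 with quantile normalization, 0.19 and 0.35 with the replicate block and median of ratios, and 0.34 and 0.42 with voom. The replicate block raised the members called lower to 3, by Mxd4 at -1.16 and Mlx at -1.01, and changed no other member's call. With the block and median of ratios scaling together, Mxd3 was the only member called. Mxd4 was then at -0.77 (limma, adjusted p = 0.14) and Mlx at -0.62 (limma, adjusted p = 0.1). The number of members without overlap was 3 after each of these scalings and 4 otherwise, outside leave-one-out fits. The 4 were all lower, while the 3 were Mnt, which was higher, and 2 that were lower. Those 2 were Mxd3 and Mga, or Mxd3 and Mlx after quantile normalization. In the deposited TPM 31.4% of tested genes were lower and 9.69% higher without overlap, and the shares after scaling are not given here. A pseudocount of 0.1 changed no member's call. The Myc to repressor ratio was not computed after quantile normalization, which does not scale a library by a single factor.

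Leaving out 1 library or 1 replicate pair gave 0 to 653 genes called higher and 0 to 3088 lower. The 0 came from limma without pair 1, where 400 genes were higher and 2010 lower at an unadjusted p under 0.05, and without pair 2, with 380 and 1849. Members called lower numbered 0 to 2 and higher 0 to 0, and 4 to 5 did not overlap. The share of all tested genes without overlap in these fits is not given here. The log2 fold change ranged from 0.03 to 1.1 for Myc, -0.18 to 0.41 for Max, -0.45 to 0.18 for Mxd1, -2.62 to -1.53 for Mxd3, -1.48 to -0.62 for Mxd4, -0.61 to 0.65 for Mxi1, 0.12 to 0.78 for Mnt, -1.18 to -0.74 for Mga and -1.32 to -0.65 for Mlx. The log2 difference of the Myc to repressor ratio ranged from 0.93 to 2.31. With 3 libraries per condition, the intervals of Myc, Max, Mxd1, Mxi1 and Mnt are too wide to show that these genes did not change.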

Other observations

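The genes whose levels followed those of 2 members most closely over the 6 libraries were sought among 7713 protein-coding genes whose mean TPM reached 10, by Pearson's r of log2(TPM + 1), as a description of these libraries with no test. For Myc they were Ankrd17 (r = 0.966), Actr1b (r = 0.965) and Sfpq (r = 0.960). Actr1b, a dynactin subunit, ran from 58.4, 85.1 and 93.4 TPM at 37°C to 80.8, 132 and 80.6 TPM at 26°C, with the peak in cold-acclimated replicate 2, where Myc peaked as well. Sfpq, a nuclear RNA-binding protein, ran from 70.2, 117 and 134 TPM to 105, 160 and 138 TPM, and Ankrd17 moved only between 39.9 and 58.3 TPM.

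For Mxd4 they were Trp53inp1 (r = 0.989), B4galt1 (r = 0.989) and Ralgapa1 (r = 0.981). Trp53inp1, a p53-inducible gene linked to autophagy, ran from 57.8, 44.0 and 51.4 TPM at 37°C to 6.28, 21.2 and 34.7 TPM at 26°C. B4galt1, a Golgi galactosyltransferase, ran from 71.1, 66.5 and 91.8 TPM to 23.6, 47.8 and 61.1 TPM, and Ralgapa1, a GTPase-activating subunit, from 15.9, 12.9 and 15.8 TPM to 6.70, 9.33 and 11.6 TPM. As with Mxd4, the lowest value of each was in cold-acclimated replicate 1. The 6 points of each pair of genes share libraries and depth.

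The E-box stood in 10.3% of the 223 promoter windows of protein-coding genes called higher and in 8.3% of the 1758 of genes called lower, on either side of the 9.65% of tested protein-coding genes. The E2F sites stood in 1.79% and 3.58% of the same windows. These shares are a description and were not tested.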
